A study of Homo sapiens with 6 samples.

Results

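CXCL1, CXCL2, CXCL3 and CXCL8 are secreted chemokines of the ELR CXC class, named for the glutamate-leucine-arginine motif ahead of the CXC cysteines. All 4 were found by gene name in the deposited table, which holds 14136 gene entries, and all 4 were among the 12210 genes tested. The set was chosen by the difference in TPM between the CES2 and Vector libraries, so that difference is described and not tested.

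RNA was sequenced from Cal33 cells, a line established from a human squamous carcinoma of the mouth. Cells labelled Vector (3 libraries) had been infected with lentivirus carrying the pSin-EF2 plasmid without an insert. Cells labelled CES2 (3 libraries) had received the same plasmid with FLAG-tagged CES2, the carboxylesterase that hydrolyses ester drugs and lipids in the endoplasmic reticulum. Both groups were stable populations under 0.5 ug/ml puromycin, from virus packaged in 293FT cells. Whether replicate libraries derive from distinct infections or cultures is not stated in the labels, so the spread between them may be technical. The comparison asks what changed in the transcriptome when CES2 was raised, and CES2 itself was at 41.9 to 45.6 TPM in Vector and at 1929 to 2664 TPM in CES2. TPM is transcript abundance per length, scaled to a total of 1000000 per library. It keeps no sequencing depth, so no counting interval can be given.

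ELR CXC chemokines attract and activate neutrophils. They act through the receptor CXCR2, and CXCL8, also called interleukin 8, acts through CXCR1 as well. Epithelial and carcinoma cells transcribe these genes through NF-kappaB, often with AP-1 and C/EBP factors, after signals such as interleukin 1 or TNF. Their mRNAs carry AU-rich elements and are short-lived, being bound by ZFP36 proteins and cut by the endonuclease regnase-1.

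The 4 genes lie in a single chemokine cluster on chromosome 4, within 358788 bases (GRCh38). Each listed transcript has 4 exons. CXCL8 (ENSG00000169429) runs from 73740506 to 73743716 and CXCL1 (ENSG00000163739) from 73869404 to 73871242, both on the plus strand. CXCL3 (ENSG00000163734) runs from 74036589 to 74038689 and CXCL2 (ENSG00000081041) from 74097035 to 74099293, both on the minus strand. These coordinates are those of the same transcripts in GENCODE release 29.

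The upstream sequence of the 4 genes is shown because they share a short motif. CXCL5, an ELR relative in the same cluster, is shown beside them because it was nearly undetected. Each line gives the 150 bases before the gene's start in RefSeq (GRCh38.p14), 5′ to 3′ on the gene's own strand. Capitals mark GGAATTTCC, a core that NF-kappaB dimers bind, TGANTCA, the AP-1 element, and TATAAA, the TATA box. Both strands were searched, and no matches overlap.
CXCL1 (plus strand, chr4:73869243-73869392): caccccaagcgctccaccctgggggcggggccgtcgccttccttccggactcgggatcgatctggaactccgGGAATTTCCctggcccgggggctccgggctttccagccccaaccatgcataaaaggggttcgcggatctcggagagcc
CXCL2 (minus strand, chr4:74099196-74099345): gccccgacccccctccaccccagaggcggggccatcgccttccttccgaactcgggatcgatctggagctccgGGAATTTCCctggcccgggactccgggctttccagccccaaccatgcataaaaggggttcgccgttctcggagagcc
CXCL3 (minus strand, chr4:74038690-74038839): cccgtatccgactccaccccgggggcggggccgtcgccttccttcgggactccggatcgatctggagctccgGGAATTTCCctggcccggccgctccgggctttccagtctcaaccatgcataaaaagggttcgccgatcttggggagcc
CXCL8 (plus strand, chr4:73740419-73740568): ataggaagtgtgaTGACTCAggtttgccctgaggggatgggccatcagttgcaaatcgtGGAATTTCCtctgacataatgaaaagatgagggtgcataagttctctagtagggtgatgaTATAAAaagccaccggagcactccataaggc
CXCL5 (minus strand, chr4:73998678-73998827): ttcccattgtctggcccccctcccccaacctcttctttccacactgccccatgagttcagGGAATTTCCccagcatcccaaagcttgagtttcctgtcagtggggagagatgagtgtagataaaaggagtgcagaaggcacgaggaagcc

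GGAATTTCC occurred once in each of these windows. With the base before the start counted as -1, it ran from -78 to -70 in CXCL1 and CXCL3, from -77 to -69 in CXCL2, from -91 to -83 in CXCL8 and from -90 to -82 in CXCL5. Of the 35116 promoter windows in the reference table, which reach from 250 bases before to 50 bases after a start, 0.461% held it. TGANTCA was found in CXCL8 alone of the 5, from -137 to -131, against 7.71% of all windows. An exact TATAAA was also found in CXCL8 alone, from -31 to -26, against 11.5%. Variants were not searched, and the windows above hold cataaa in CXCL1, CXCL2 and CXCL3 and gataaa in CXCL5. The search thus does not show that these genes lack a TATA-like element. A match describes the letters and not occupancy by a factor, which was not measured.

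Aligned over these 150 bases, CXCL1 was 88.7% identical to CXCL2 and 88.1% to CXCL3, and CXCL2 was 86.1% identical to CXCL3. CXCL8 was only 43.6% to 45.1% identical to the other members. The longest run shared by CXCL1, CXCL2 and CXCL3 was the 23-base ctccgGGAATTTCCctggcccgg, whereas the longest run that all 4 shared was GGAATTTCC itself. The listed transcripts of CXCL2, CXCL8 and CXCL5 start 98, 63 and 102 bases upstream of the RefSeq start, so part of these windows lies within them, including GGAATTTCC of CXCL2 and CXCL5 and TATAAA of CXCL8.

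The close kinship of CXCL1, CXCL2 and CXCL3 also bears on the counting of reads. Between their listed transcripts, 5.3% to 9.2% of all 50-base windows occurred identically in another member, and 0.0% of 100-base windows did. CXCL8 shared 0.0% of windows at either length. The sources used here give neither the read length nor the handling of reads with several matches, so the values of CXCL1, CXCL2 and CXCL3 are uncertain to the extent that such reads were split.

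CXCL8 and CXCL1 were the abundant members and CXCL2 and CXCL3 the scarce ones, in every library. Vector 1, 2 and 3 held 523, 272 and 107 TPM of CXCL8, and CES2 1, 2 and 3 held 939.8, 850.0 and 384 TPM. CES2 1 and CES2 2 lay above all Vector libraries, but CES2 3 lay below Vector 1, so the groups overlapped. Vector averaged 301 ± 209.6 TPM and CES2 averaged 725 ± 298 TPM (SD, n = 3), a ratio of 2.41. The log2 fold change of CXCL8 on the log2(TPM + 1) scale, on which the change of low genes is compressed, was 1.44 ± 0.56 (SE). Without Vector 3, the lowest library, it was 0.84.

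CXCL1, a CXCR2 ligand first described as a melanoma growth factor, measured 168, 184 and 113 TPM across Vector 1 to 3 and 499, 497 and 336 TPM across CES2 1 to 3. The groups did not overlap, and the lowest CES2 value was 1.83 times the highest Vector value. The means were 155 ± 37.1 TPM and 444 ± 93.3 TPM (SD, n = 3 each), a ratio of 2.87, for a log2 fold change of 1.52 ± 0.25 (SE). This was the smallest standard error among the 4 genes.

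CXCL3, a close paralogue of CXCL1, measured 8.84, 8.74 and 3.92 TPM across Vector 1 to 3 and 52.3, 49.3 and 24.3 TPM across CES2 1 to 3. Its groups were the furthest apart of the 4, with the lowest CES2 value 2.75 times the highest Vector value. The means were 7.17 ± 2.81 TPM and 42.0 ± 15.3 TPM (SD, n = 3 each), a ratio of 5.85. Its log2 fold change was 2.39 ± 0.38 (SE).

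CXCL2, also called MIP-2 alpha, measured 10.6, 14.0 and 3.37 TPM across Vector 1 to 3 and 33.9, 42.2 and 24.2 TPM across CES2 1 to 3. The groups did not overlap, and the lowest CES2 value was 1.73 times the highest Vector value. The means were 9.34 ± 5.44 TPM and 33.5 ± 9.02 TPM (SD, n = 3 each), a ratio of 3.58, for a log2 fold change of 1.88 ± 0.45 (SE). Vector 3 stood apart from the other Vector libraries for this gene more than for CXCL1.

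**Figure D1:**
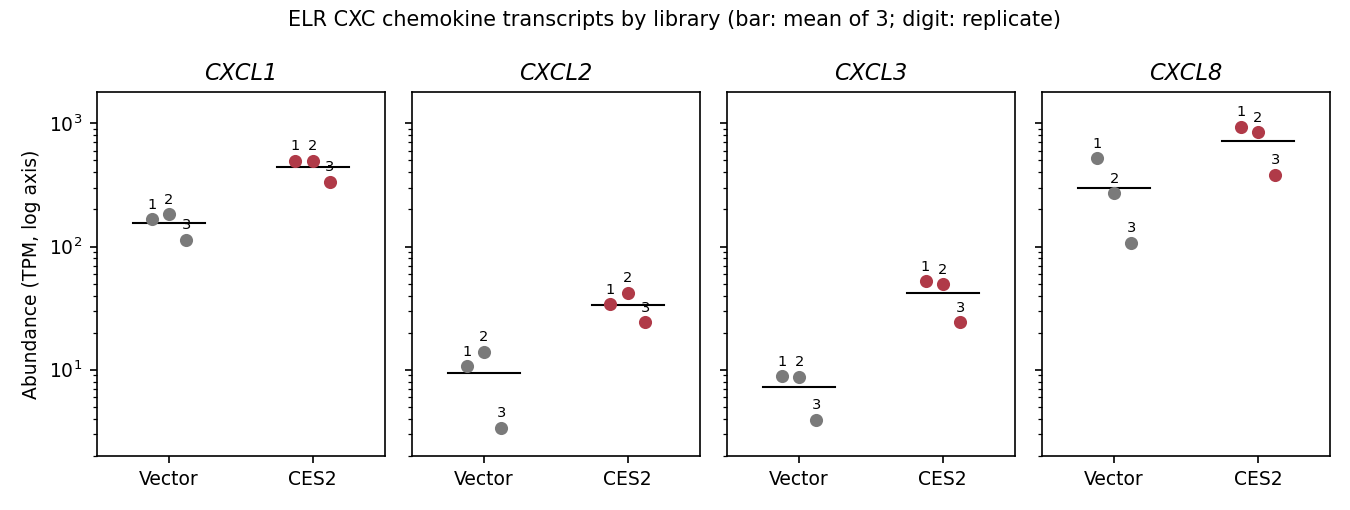
TPM of CXCL1, CXCL2, CXCL3 and CXCL8 on a log axis in the 3 Vector and 3 CES2 libraries (points, numbered by replicate) with the mean of each group (bar). The groups separate for CXCL1, CXCL2 and CXCL3 and overlap for CXCL8, where Vector 1 at 523 TPM lies above CES2 3 at 384 TPM.

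All 4 had a log2 fold change above 1, against 0.45% of tested genes, and 3 of 4 had CES2 libraries all above Vector libraries, against 1.07%. Because this contrast chose the genes, these counts carry no weight as evidence. For the other genes, limma was used over all tested genes (adjusted p under 0.05, Benjamini-Hochberg), a threshold that 0.00819% of genes passed, namely CES2 alone, while 1.09% had an unadjusted p under 0.05. The median of all 12210 log2 fold changes was -0.06. In bulk RNA, more cells that express a gene and more transcript per cell cannot be told apart.

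Within each group the 4 genes were lowest in the same library. Relative to each gene's own mean over the 6 libraries, in log2(TPM + 1) units, the average of the 4 deviations was -0.43 in Vector 1, -0.54 in Vector 2 and -1.74 in Vector 3. It was 1.18 in CES2 1, 1.20 in CES2 2 and 0.33 in CES2 3. CES2 1 and CES2 2 were thus alike, CES2 3 was lower than both, and Vector 3 was the lowest library for every member.

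The members differed most in Vector 1, where CXCL8 stood apart. It lay 0.35 above its mean there while the others lay 0.59 to 0.86 below theirs, so the members spanned 1.21 log2 units against 0.55 to 0.83 in the other libraries. In CES2 3 CXCL8 was at -0.09 while the others were at 0.38 to 0.52. In Vector 3 it was CXCL1 that stood apart, at -1.18 against -2.01 to -1.86, and in CES2 1 CXCL3, at 1.58 against 0.95 to 1.20. CXCL8 was therefore the one member for which a Vector library ranked above a CES2 library.

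With the group means removed, all 4 genes lay above their group mean in Vector 1, Vector 2, CES2 1 and CES2 2 and below it in Vector 3 and CES2 3. The deviations ran from -1.20 (CXCL8) to -0.42 (CXCL1) in Vector 3 and from -0.81 (CXCL8) to -0.38 (CXCL1) in CES2 3. CXCL1 deviated least and CXCL8 most in both of these libraries. Of all tested genes, 9.34% were lowest in the same libraries of both groups.

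The 1529 other tested genes with transcripts of 1075 to 1705 bases, the range of the members, had median deviations of 0.07 in Vector 3 and -0.001 in CES2 3. The 82 ribosomal protein genes had medians of -0.22 and -0.09. The 2212 tested genes with shorter transcripts had medians of 0.07 and -0.05. At the median, ribosomal protein genes thus dipped in both libraries, by less than the chemokines. Lengths are those of the listed transcripts, which may not be the ones expressed. Whether transcript length or the ribosomal protein genes had a part in the dip of the chemokines was not tested. Without both of these libraries, an alternative chosen after their values were seen, log2 fold changes were 1.50 for CXCL1, 1.56 for CXCL2, 2.40 for CXCL3 and 1.24 for CXCL8.

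**Figure D2:**
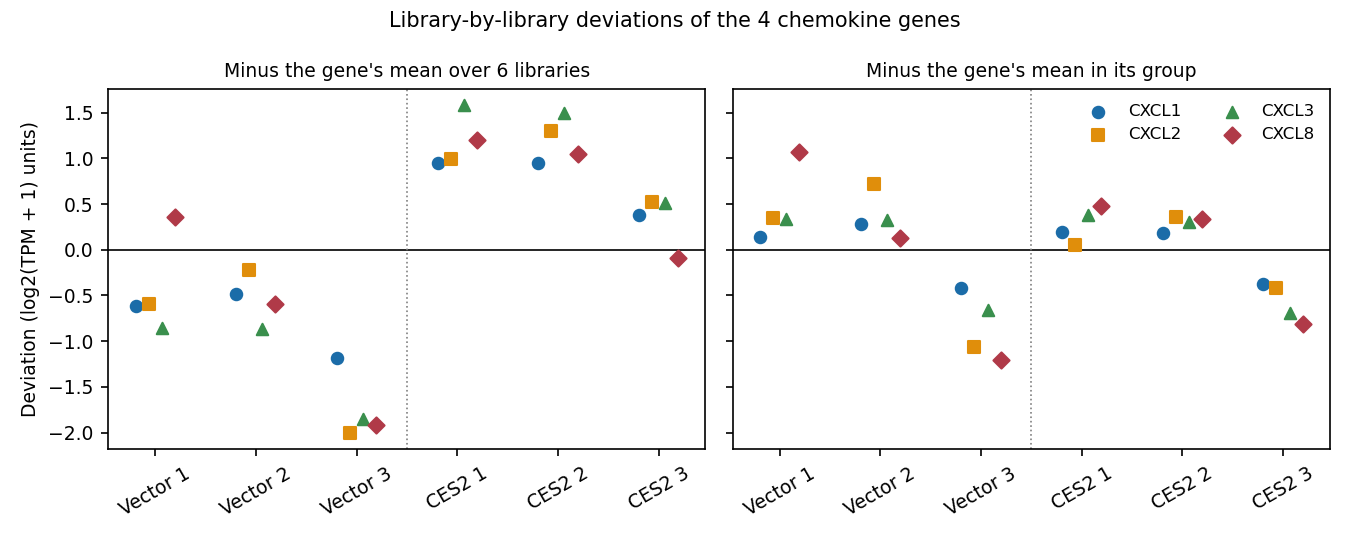
Deviation of each gene's log2(TPM + 1) from its mean over 6 libraries (left) and from its group mean (right), for CXCL1, CXCL2, CXCL3 and CXCL8 in each library. On the right every gene falls below 0 in Vector 3 and CES2 3, and on the left CXCL8 departs from the others in Vector 1.

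Across the CES2 libraries the chemokines and CES2 were in a different order. CES2 was at 2664, 1929 and 2294 TPM in CES2 1, 2 and 3, and the summed TPM of the 4 chemokines was 1525, 1439 and 769. CES2 2, with the least CES2 transcript, thus had nearly as much chemokine transcript as CES2 1, and CES2 3 had the least with an intermediate CES2 level. In Vector the sum was 710.5, 479 and 228 TPM. The lowest CES2 sum was 1.08 times the highest Vector sum, and the ratio of the group means was 2.63.

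Shares within a library do not depend on how the library was scaled. CXCL8 made up 73.7%, 56.8% and 47.1% of the summed TPM in Vector 1, 2 and 3 and 61.6%, 59.1% and 49.9% in CES2 1, 2 and 3. CXCL1 made up 23.6%, 38.4% and 49.7%, and 32.7%, 34.6% and 43.8%. The group means of the CXCL1 share, 37.2% ± 13.1 and 37.0% ± 5.91 (SD, n = 3 each), differed by less than the spread between libraries. CXCL8 exceeded CXCL1 in 5 of the 6 libraries, the exception being Vector 3 at 107 against 113 TPM, so the order of these genes does not hold beyond their spread.

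Of the scarce members, CXCL3 took a larger part of the sum in CES2 and CXCL2 overlapped. CXCL3 made up 1.24% to 1.83% of the sum in Vector and 3.16% to 3.43% in CES2, and the groups did not overlap. CXCL1 transcripts outnumbered CXCL3 transcripts by 19.0, 21.0 and 28.9 to 1 in Vector and by 9.55, 10.1 and 13.8 to 1 in CES2. The CXCL2 share overlapped, at 1.48% to 2.93% in Vector and 2.23% to 3.15% in CES2. CXCL3 divided by CXCL2 gave 0.831, 0.624 and 1.16 for Vector 1 to 3 and 1.54, 1.17 and 1.01 for CES2 1 to 3, so these paralogues could not be ordered beyond their spread.

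**Figure D3:**
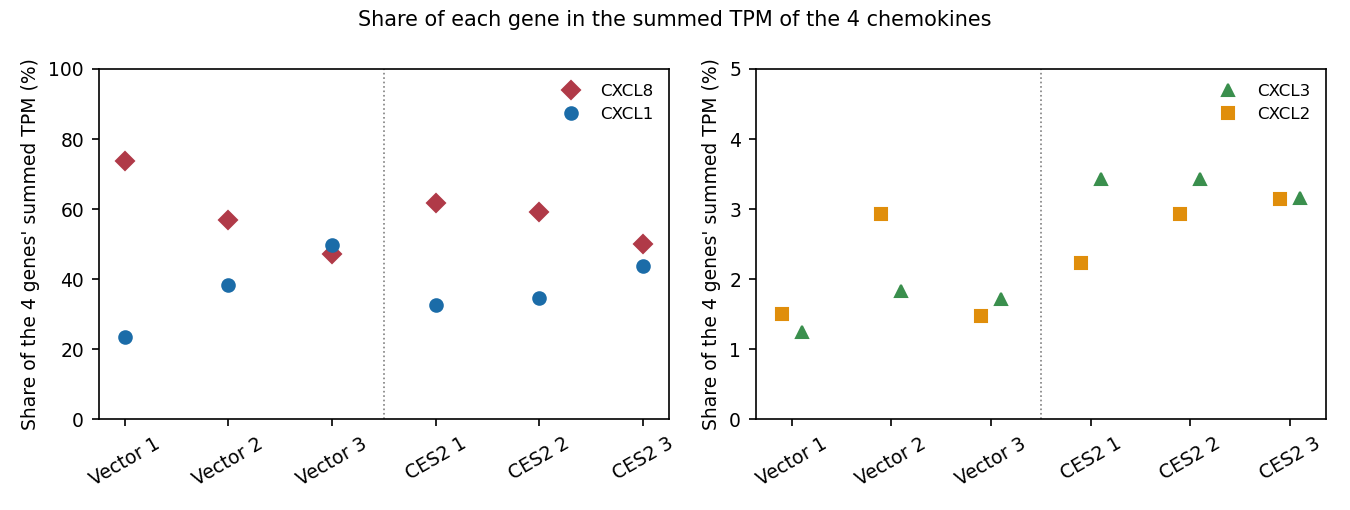
Share of CXCL8 and CXCL1 (left, 0 to 100%) and of CXCL3 and CXCL2 (right, 0 to 5%) in the summed TPM of the 4 genes, per library. CXCL8 and CXCL1 shares overlap between groups, and the CXCL3 share is 3.16% to 3.43% in CES2 against at most 1.83% in Vector.

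Among all tested genes CXCL3 stood further apart in rank between the groups than CXCL8. By TPM, CXCL3 stood at percentile 20.4, 24.3 and 10.2 in Vector and at 69.5, 68.7 and 47.6 in CES2. CXCL8 stood at percentile 98.0, 95.2 and 84.1 in Vector and at 98.8, 98.7 and 97.0 in CES2. Being near the top in Vector already, CXCL8 had little room to rise, so these shifts do not compare the size of the changes. Counted from the highest log2 fold change down, sign included, CXCL3 ranked 9, CXCL2 15, CXCL1 25 and CXCL8 29 of the 12210 genes. Because this contrast chose the genes, these ranks carry no weight as evidence.

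The other tested genes of the chromosomal neighbourhood had log2 fold changes between -0.24 and 0.04. Within 1 Mb on either side of the cluster, 7 other genes were tested, of which 2 were higher and 5 lower in CES2, and their median was -0.09. None passed the test, and none had groups that did not overlap. Between CXCL8 and CXCL2 themselves lies CXCL5, which was blank in all 3 Vector libraries and at 0.0433, 0.251 and 0.317 TPM in CES2 1, 2 and 3. With every Vector library blank and every value below the 1 TPM filter, no fold was computed for CXCL5. The ELR relatives CXCL6 and PPBP had no entry under those names, so they were not analysed here.

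MTHFD2L, a mitochondrial folate enzyme gene next to CXCL2, had a value of -0.09 ± 0.26 (SE). The EGFR ligand genes EREG, AREG and BTC beyond it had 0.04, -0.06 and -0.20, that of AREG turning to 0.01 under quantile normalization. On the other side of CXCL8, the tumour suppressor gene RASSF6 had 0.04, ANKRD17 -0.18 and COX18 -0.24. The largest standard error among these was 0.45, for EREG, which was at 1.70 to 7.75 TPM.

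**Figure D4:**
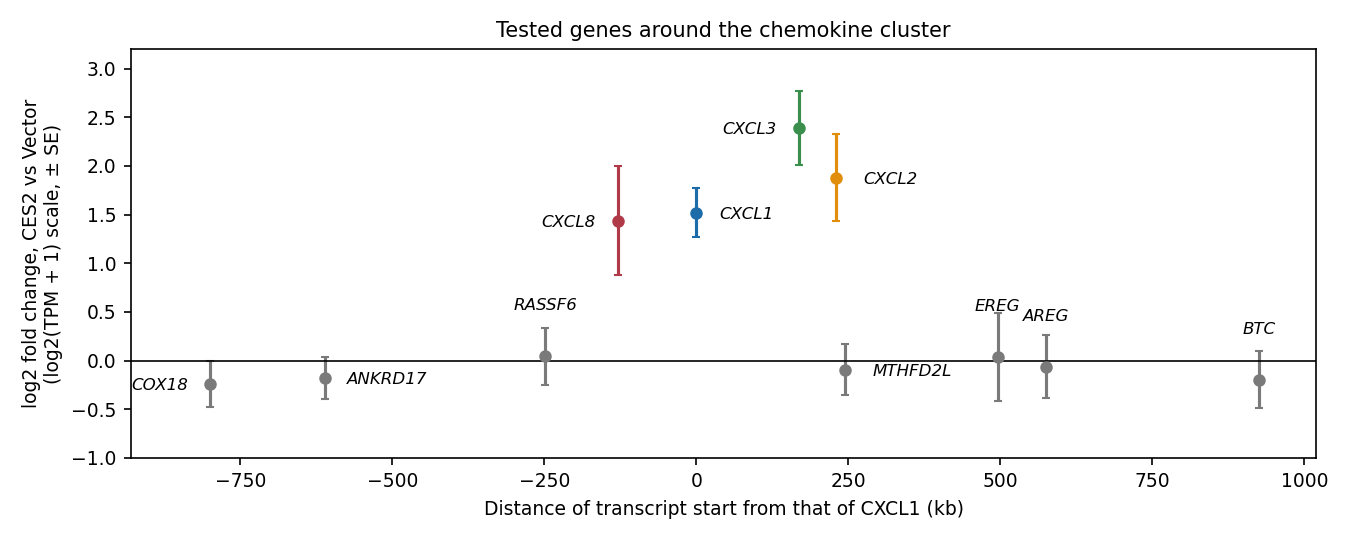
Log2 fold change (CES2 against Vector, ± standard error) of tested genes plotted by the distance of their transcript start from that of CXCL1, in kb. The 4 chemokine genes lie between 1.44 and 2.39, and the 7 neighbours between -0.24 and 0.04.

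Receptors were listed at low levels in these cells. CXCR2, the receptor of all 4 chemokines, measured 4.21, 3.83 and 5.28 TPM across Vector 1 to 3 and 2.68, 3.58 and 1.78 TPM across CES2 1 to 3. Its CES2 values were all below its Vector values, as for 2.63% of tested genes. The log2 fold change of -0.59 ± 0.28 (SE) did not pass (limma, adjusted p = 1.00, Benjamini-Hochberg). The scavenging receptor gene ACKR3 had a log2 fold change of 0.01. Heparan sulphate proteoglycans hold chemokines at the cell surface, and their genes SDC1, SDC4 and GPC1 had log2 fold changes of -0.07, 0.33 and 0.21. Of 6 tested genes of this list, 4 were higher and 2 lower, 0 passed, and 0 had an unadjusted p under 0.05.

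Other chemokines were mixed. Of the CXC and CX3C chemokines without the ELR motif, 3 were tested, 1 higher and 2 lower, with a median of -0.22 and 0 past an unadjusted p under 0.05. CXCL16 was at 0.03, CX3CL1 at -0.22 and CXCL17 at -0.75. The CC chemokines had 5 of 6 tested genes higher and a median of 0.79. Of the 6, 3 had CES2 libraries all above Vector libraries, against 1.07% of tested genes. The CC list was drawn up with these data known, so its counts are no independent evidence. CCL20, a ligand for CCR6 on dendritic cells and lymphocytes, measured 119.8, 45.9 and 10.9 TPM across Vector 1 to 3 and 503, 862 and 177 TPM across CES2 1 to 3, a log2 fold change of 3.39. CCL2 had 2.74, CCL5 0.95 and CCL28 0.63. In the limma test 0 of the 6 passed, while 2 had an unadjusted p under 0.05, against 1.09% of tested genes.

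Genes of the signals that induce these chemokines, mostly receptors and adaptors, gave a median near 0. Of 16 tested ligands, receptors and adaptors, 8 were higher and 8 lower, with a median log2 fold change of -0.01 that was 0.05 after median rescaling and 0.06 after quantile normalization. The interleukin 1 ligands were the exceptions in size: IL1A measured 0.764, 0.238 and 0.483 TPM across Vector 1 to 3 and 1.48, 2.83 and 1.63 TPM across CES2 1 to 3, and its log2 fold change was 0.98. IL1B measured 8.04, 4.54 and 2.60 TPM and then 7.71, 12.5 and 9.81 TPM, a log2 fold change of 0.94. The groups overlapped for IL1B. IL1RN, which encodes the interleukin 1 receptor antagonist, had -0.58 and F2RL1, a protease-activated receptor gene, -0.20. In the limma test 0 of the 16 passed, and 2 had an unadjusted p under 0.05 (IL1A and IL1B), against 1.09% of tested genes. The ligand gene IL36G was too low to be tested. It was blank in Vector 2, at 0.397 and 0.0578 TPM in Vector 1 and 3, and at 0.878, 0.413 and 0.699 TPM in CES2 1 to 3. The ligands TNF and IL17A had no entry under those names, so they were not analysed here.

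Of 14 genes for NF-kappaB factors and their inhibitors, 11 were higher and 3 lower in CES2, and their median was 0.26. After median rescaling or quantile normalization 13 were higher. None passed the limma test, and 3 had an unadjusted p under 0.05, against 1.09% of tested genes. Of the 14, 5 had CES2 libraries all above Vector libraries, against 1.07%. This list was drawn up with these data known, so its counts are no independent evidence. TNFAIP3, which encodes the feedback inhibitor A20, measured 27.2, 19.0 and 11.4 TPM across Vector 1 to 3 and 57.1, 52.7 and 38.7 TPM across CES2 1 to 3, a log2 fold change of 1.38. Like the chemokines it was lowest in Vector 3 and in CES2 3. NFKBIA, the inhibitor IkappaB alpha, had 0.89, RELB 0.75 and BCL3 0.42, whereas RELA, the main activating subunit, had -0.02, which turned to 0.04 after median rescaling and 0.02 after quantile normalization.

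AP-1, C/EBP and EGR1 factors were higher at 8 of 12 (9 after median rescaling and 10 after quantile normalization), with a median of 0.07 and 0 past an unadjusted p under 0.05. CEBPD had a log2 fold change of 1.05, CEBPB 0.67, JUND 0.43 and ATF3 0.51, all with groups that overlapped. Of the 4 lower genes EGR1 had the lowest value, -0.73, also with groups that overlapped. The median was 0.38 without CES2 3.

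Genes linked to the decay or stability of mRNAs were higher at 4 of 11 (5 after median rescaling), with a median of -0.07. The list mixes genes that promote decay with genes that oppose it, so its count and median give no direction for decay. In the limma test 0 of the 11 passed the threshold and 1 had an unadjusted p under 0.05, against 1.09% of tested genes. That gene was ZC3H12A, which encodes regnase-1. ZC3H12A measured 64.1, 51.6 and 27.2 TPM across Vector 1 to 3 and 125, 178 and 80.8 TPM across CES2 1 to 3. Its groups did not overlap, and its log2 fold change was 1.42. ZFP36, the destabilising protein tristetraprolin, had -0.15, ZFP36L1 0.32, ZFP36L2 -0.42 and RC3H1 -0.26.

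Epithelial products linked to neutrophils were higher at 11 of 11 tested, also after median rescaling and quantile normalization, and their median was 1.23. This list was drawn up with these data known, so its direction is no independent evidence. None passed the limma test, and 7 had an unadjusted p under 0.05, against 1.09% of tested genes. CES2 libraries were all above Vector libraries for 3 (S100A8, S100A9 and LIF), against 1.07%. SAA1, serum amyloid A, measured 102, 31.8 and 7.71 TPM across Vector 1 to 3 and 299, 489 and 56.3 TPM across CES2 1 to 3, a log2 fold change of 2.72. S100A8 had 2.06, S100A9 1.58 and LIF, a cytokine of the interleukin 6 family, 1.14. The split of reads between SAA1 and its near-identical copy SAA2 is uncertain. CSF3 encodes the granulocyte growth factor G-CSF, and it was blank in Vector 3. The other Vector libraries held 0.196 and 0.0757 TPM of CSF3, and the CES2 libraries held 0.578, 1.44 and 1.09 TPM. ICAM1, an adhesion molecule for leukocytes on the same list and like CSF3 too low to be tested, was lower in each CES2 library, at 0.224, 0.518 and 0.570 TPM against 0.775, 0.594 and 1.25 TPM. IL6, also too low, overlapped between the groups.

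**Figure D5:**
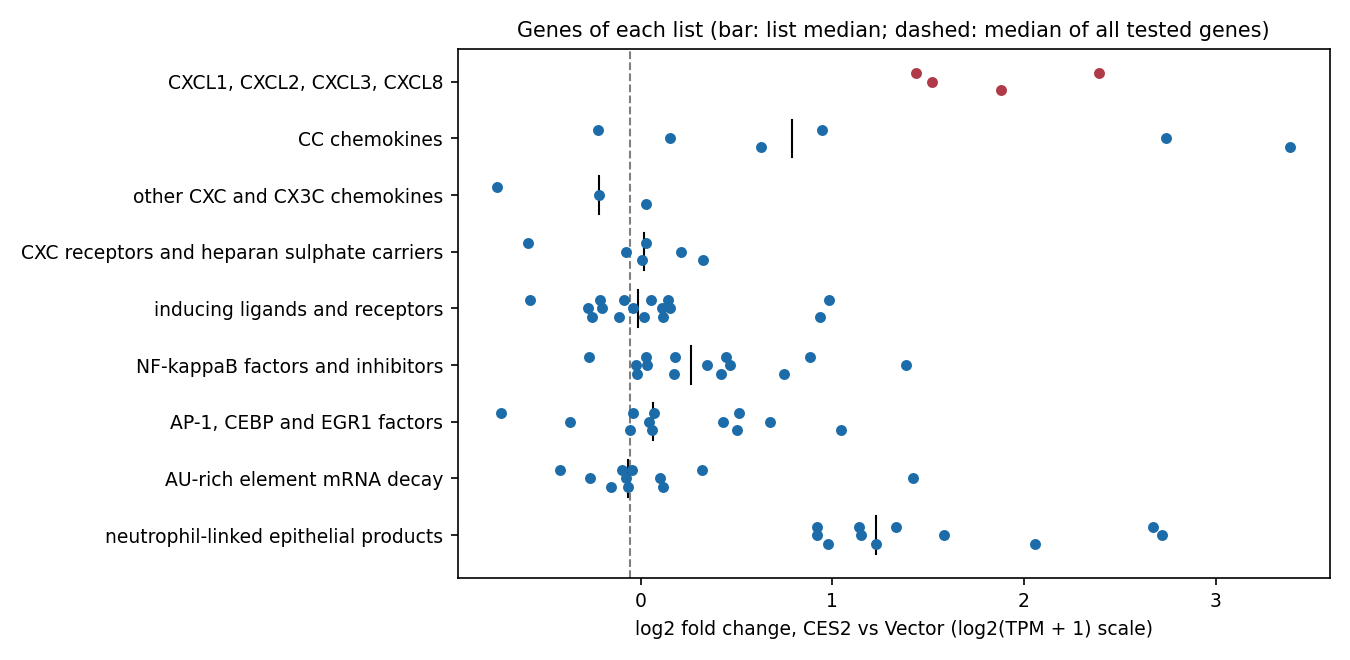
Log2 fold change (CES2 against Vector) of the 4 chemokines and of each tested gene of the other lists (points), with the median of each other list (bar) and of all tested genes (dashed line, at -0.06). The bars of the neutrophil-linked products and CC chemokines stand at 1.23 and 0.79, and those of receptors, inducing signals and mRNA decay between -0.07 and 0.02.

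The genes with the most similar profile were sought by the root mean square difference from the mean profile of the 4 members, in log2(TPM + 1) minus the gene's mean, over the 6 libraries. A gene with a flat profile would differ by 1.04. This profile keeps the difference between the groups, by which the members were chosen. Nearness on it, between members or to other genes higher in CES2, is therefore no independent evidence that genes track each other. Of 12206 other tested genes the nearest included ZC3H12A at 0.254, TNFAIP3 at 0.29 and LIF at 0.389. FEZ1 at 0.420, S100A8 at 0.460, S100A9 at 0.482 and CLEC11A at 0.484 followed.

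On this same profile, group difference included, the members were not always each other's nearest genes. Measured from CXCL3 among 12209 genes, CXCL2 ranked 2, CXCL1 ranked 3 and CXCL8 ranked 9, behind CCL2. Measured from CXCL1, CXCL2 ranked 12, CXCL3 25 and CXCL8 50. Measured from CXCL8, CXCL2 ranked 11, CXCL1 19 and CXCL3 35, and TNIP3 was nearest at 0.352.

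With the group means removed, so that only the spread within groups was compared, the nearest genes to the chemokine mean were different ones. They were SEM1 at 0.0744, AL136454.1 at 0.0884, RPL31 at 0.0906, IGFBP6 at 0.103, BLCAP at 0.105, RPL27 at 0.109, ZNF419 at 0.125 and ATP5F1E at 0.126, where a flat profile would differ by 0.508. RPL31, a ribosomal protein gene, measured 1244, 1115 and 567 TPM across Vector 1 to 3 and 1113, 1158 and 554 TPM across CES2 1 to 3, low in Vector 3 and CES2 3 as the chemokines were. Log2 fold changes of these 8 genes lay between -0.29 and 0.06. On this measure the members' ranks among 12209 genes depended on the gene they were taken from. The difference is not scaled for the size of the deviations, which in Vector 3 and CES2 3 were smallest for CXCL1 and largest for CXCL8. A late rank is therefore not a difference in direction, which was the same for every member in each library. From CXCL1, CXCL3 ranked 491, CXCL2 3577 and CXCL8 9859. From CXCL2, CXCL3 ranked 39, CXCL1 83 and CXCL8 426. From CXCL3, CXCL1 ranked 58, CXCL2 315 and CXCL8 1228, and from CXCL8, CXCL3 ranked 60, CXCL2 150 and CXCL1 484.

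Squamous markers were present at similar summed levels, at 4142 to 5386 TPM in Vector and 4026 to 5412 TPM in CES2 for 8 genes. KRT5 was at 1031 to 2597 TPM and KRT17 at 1111 to 1941 TPM over the 6 libraries, TP63 was at 54.3 to 117 TPM, and KRT14 was listed at only 1.14 to 2.97 TPM. Of 8 leukocyte markers, 4 were in the table with a summed level of 6.92 to 12.4 TPM in Vector and 6.04 to 9.08 TPM in CES2. Most of that was CD68, while CD14, ITGAM and LYZ were each below 1 TPM in all libraries. Of 8 fibroblast and endothelial markers, 4 were in the table, at 19.5 to 30.3 TPM in Vector and 21.0 to 24.4 TPM in CES2. CDH5 was the highest of these in 4 libraries, and COL1A1 in Vector 1 and CES2 2. The defining markers PTPRC, CSF3R, DCN and LUM had no entry under those names, so they were not analysed here.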

How the data were processed

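Total RNA of 6 Cal33 libraries (3 Vector, 3 CES2) was depleted of ribosomal RNA and made into strand-specific libraries, per the labels' protocols. The authors deposited 1 table of TPM. The unit was read from the values, as the columns sum to 999804 to 999893 and the header names none. The tools edgeR 3.0.8, HISAT2 2.1.0 and StringTie 1.3.3 and the builds hg38 and GRCh38 are named in the submitters' processing notes, with no role. The sources used here give neither the annotation nor the filters. Blanks (73 to 279 entries per library) were read as 0, and 20 symbols turned into dates were restored from gene identifiers. Sequencing depth is unknown.

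Genes reaching 1 TPM in 3 or more libraries were compared on log2(TPM + 1), with a pseudocount of 1, by limma 3.58.1 in R 4.3.3 (intensity trend, empirical Bayes, group as the only term, Benjamini-Hochberg adjusted p under 0.05). The test was checked on simulated data. Python 3.11.15, pandas 2.3.3, numpy 2.4.6 and matplotlib 3.10.9 were used otherwise. The members and all gene lists were chosen with earlier results of these data known. Named genes are the members, CES2, the ELR relatives, up to 4 tested genes of each list with the smallest p, the tested neighbours within 1 Mb and the 8 most similar profiles of each kind. One gene that this rule names is not reported here. ACKR3, RELA, EGR1, ZFP36, SAA2, CSF3, ICAM1, IL6, IL36G, TNIP3, RTEL1-TNFRSF6B and some markers fall outside this rule. They were named after their values were seen, as was the set of ribosomal protein genes. Sequences are from RefSeq, with all 4 members and CXCL5 matched by symbol. Alternatives left out each library and varied the block, scaling, pseudocount, filter, trend and library weights.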

Additional observations from a re-analysis of the deposited data

How the results depend on the processing

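Each of the 4 chemokine genes kept a positive log2 fold change, moved by less than the spread between replicates, in all alternatives run. Leaving out each library in turn gave 1.31 to 1.71 for CXCL1, 1.35 to 2.24 for CXCL2, 2.06 to 2.73 for CXCL3 and 0.84 to 1.97 for CXCL8, and the lowest value of each was that without Vector 3. The ratio of summed TPM was 2.09 to 3.52 when 1 library was left out and 2.49 without both Vector 3 and CES2 3. Leaving out 1 library gave 1 to 2 genes past the threshold, the 2 being CES2 and RTEL1-TNFRSF6B without CES2 3. With library weights there were 4 (CES2, CCL2, and CXCL1 and CXCL3, which this contrast had chosen), but the estimation of the weights stopped before it reached its convergence tolerance. The weight of CES2 1 was then 6.86 against 0.513 to 1.12 for the others. The median of the NF-kappaB list was 0.26, and 0.37 without Vector 1 or without CES2 3. That of the AP-1 list was 0.45 without both Vector 3 and CES2 3. That of the CC chemokines was 1.84 with a filter at 5 TPM, where fewer genes were tested. With the replicate number as a block the count stayed at 1. Standard errors were then 0.17 for CXCL1, 0.29 for CXCL2, 0.21 for CXCL3 and 0.24 for CXCL8, below those of the main fit. What the numbers mark is not stated in the labels. Same-numbered deviations correlated at 0.145, -0.52 and 0.375 across genes, and Vector 1 correlated best with CES2 2 (0.682). Deviations within a group sum to 0, so these correlations cannot decide whether the numbers pair the libraries. Depth cannot be read from TPM, so its limits on the scarce members are unknown.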
